A study of Mus musculus with 3 samples.

Results

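Cxcl14, Pdpn and Lmo1 are 3 of the 14656 genes measured in both UMI tables of a single-cell study of mouse dorsal skin epithelium at E14.5, a stage of primary hair placode formation. They were chosen by name, because their transcripts had been seen to be lower in suprabasal or placode cells than in basal cells, so their levels across these cell classes are given as a description with no test. The 2 placode-enriched libraries came from cells sorted as positive for the surface antigen MAdCAM-1, and the 1 total epithelium library came from epithelium sorted without that gate. All 3 libraries were from wild-type C57BL/6JOlaHsd embryos. The epithelium was freed with Dispase II, sheets of 3 to 4 littermates were pooled for each sample, so that no value belongs to a single embryo, and cells were parted with TrypLE before sorting.

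Cxcl14 encodes a secreted CXC chemokine made by many epithelia. Pdpn encodes podoplanin, a mucin-type membrane glycoprotein whose short cytoplasmic tail binds ezrin, radixin and moesin, the proteins that tie the membrane to cortical actin. Podoplanin marks lymphatic endothelium and is also known from basal keratinocytes. Lmo1 encodes a LIM-only protein that binds no DNA by itself and joins DNA-binding factors, among them GATA and E-box-binding helix-loop-helix proteins, to the adaptor LDB1. The epidermis grows from its basal layer: basal cells either divide in place, move up as suprabasal cells that start keratin 1 and keratin 10, or, at set sites, join a hair placode, which signals through Shh and Dkk4 and is ringed by Sox9-positive cells.

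The genes lie on different chromosomes, and each is protein coding and on the minus strand of GRCm38. Pdpn spans 143267431 to 143299564 on chromosome 4, with 2 annotated transcripts. Lmo1 spans 109138572 to 109175207 on chromosome 7, with 3 transcripts, and Cxcl14 spans 56288643 to 56296551 on chromosome 13, with 2 transcripts. The 250 bases before each start were read from the RefSeq promoter table (GRCm38.p6), which held 3 of the 3 genes, and are shown because 2 of the genes moved together across the cell classes and the third did not. Capitals mark matches, on either strand, to the E-box CANNTG, to the TCF/LEF core CTTTG or CAAAG, to the CACCC box, also read as GGGTG, and to the GATA core, also read as TATC. The windows are minus strand, at chr13:56296552-56296801, chr4:143299565-143299814 and chr7:109175208-109175457.
Cxcl14: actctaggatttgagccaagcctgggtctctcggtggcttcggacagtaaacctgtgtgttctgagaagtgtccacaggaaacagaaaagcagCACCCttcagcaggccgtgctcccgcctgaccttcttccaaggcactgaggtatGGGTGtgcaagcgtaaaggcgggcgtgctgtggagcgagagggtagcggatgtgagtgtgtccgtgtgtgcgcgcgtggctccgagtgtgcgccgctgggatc
Pdpn: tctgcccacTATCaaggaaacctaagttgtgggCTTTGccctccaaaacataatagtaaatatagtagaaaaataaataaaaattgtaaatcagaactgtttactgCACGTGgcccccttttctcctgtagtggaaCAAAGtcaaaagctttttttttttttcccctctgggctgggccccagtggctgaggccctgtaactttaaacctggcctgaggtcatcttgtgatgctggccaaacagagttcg
Lmo1: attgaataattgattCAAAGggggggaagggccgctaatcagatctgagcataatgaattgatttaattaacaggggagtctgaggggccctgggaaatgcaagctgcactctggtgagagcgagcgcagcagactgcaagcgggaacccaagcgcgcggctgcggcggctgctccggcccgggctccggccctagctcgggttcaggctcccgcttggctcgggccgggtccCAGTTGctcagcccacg
The Cxcl14 window held 2 CACCC boxes, 157 and 103 bases before the start, and 0 E-boxes. The Pdpn window held 1 E-box (CACGTG, 144 bases before the start), 2 TCF/LEF cores (217 and 114 bases) and 1 GATA core (241 bases). The Lmo1 window held 1 E-box (CAGTTG, 17 bases before the start) and 1 TCF/LEF core (235 bases). The table held a second Lmo1 start, whose window, chr7:109175150-109175399, overlaps the one shown and is not printed: it held the same E-box 75 bases before that start and 0 TCF/LEF cores, and was 72% G and C with 29 CpG dinucleotides. Matches to such short words are frequent: of 32851 windows of this length, 66.2% held an E-box, 48.6% a TCF/LEF core, 52.0% a CACCC box and 53.6% a GATA core. The Cxcl14 and Lmo1 windows were 59.6% and 61.2% G and C, with 16 and 17 CpG dinucleotides, and the Pdpn window was 43.2% G and C with 2, against medians of 52.4% and 6 over all windows.

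The tables held 1511 and 1571 cells for the placode-enriched libraries 1 and 2 and 1601 cells for the total epithelium library, with a median of 21652 to 23419 UMIs and 4536 to 4641 genes per cell and 34900788 to 38645840 UMIs per library. Pairs of libraries shared 1 or 2 cell barcodes. Cells were clustered without the 3 genes, the naming markers and the gene lists, and clusters were named from markers as suprabasal-like (cluster 7), placode-like (clusters 6, 8, 9, 10 and 13), placode-edge-like (clusters 2, 3 and 4) and basal-like (clusters 0, 1 and 5), called suprabasal, placode, edge and basal cells from here on. In the order placode-enriched 1, placode-enriched 2 and total epithelium, the libraries held 24, 28 and 290 suprabasal cells, 619, 690 and 90 placode cells, 546, 518 and 133 edge cells and 260, 265 and 1039 basal cells. The gate sets these shares, and the few suprabasal cells of the placode-enriched libraries are those that passed it. Among the naming markers, Krt10 stood at 2453 CPM (UMIs per 1000000 UMIs of the summed cells) in suprabasal cells and 94.6 CPM in basal cells, Dkk4 at 520.0 CPM in placode cells and 22.8 CPM in basal cells, Sostdc1 at 900.1 CPM in edge cells and 544 CPM in basal cells, and Krt15 at 721 CPM in edge cells and 2009 CPM in basal cells. Not every marker was highest in the class it names: basal marker Trp63 was higher in edge cells (308 CPM) than in basal cells (262 CPM). Edge markers Trps1 and Nrp2 stood at 96.9 and 44.7 CPM in placode cells and 80.3 and 32.6 CPM in edge cells. Lef1, Edar and Lhx2, also edge markers, stood at 274, 68.6 and 23.5 CPM in placode cells and 175, 53.5 and 7.42 CPM in edge cells. In basal cells Lef1 stood at 192 CPM. Of the edge markers, only Sostdc1 and Sox9 were higher in edge than in placode cells. Sostdc1, also a placode marker, was lower in placode cells (336 CPM) than in basal cells (544 CPM). The placode and edge classes are not cleanly parted: cluster 8 of the placode class had more edge than placode markers (2 against 1) among its 10 leading genes, so each gene is also given by cluster number. A further cluster of 136 cells, number 11, met no naming rule, and 21 cells were melanoblast-like.

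Cxcl14 was low in suprabasal cells, and its levels in placode and edge cells were near or above those in basal cells. Suprabasal cells had 265 and 307 CPM in placode-enriched libraries 1 and 2 and 209.8 CPM in the total epithelium library, with exact Poisson 95% intervals of 228 to 307, 273 to 343 and 199 to 221 CPM. Placode cells had 2228, 2099 and 1683 CPM, edge cells 2514, 2313 and 2148 CPM, and basal cells 2199, 2045 and 1684 CPM, in the same order of libraries. The suprabasal values lay below the basal values in every library, with no overlap, and the placode values overlapped the basal ones. Averaged over the libraries, suprabasal cells were 7.63-fold lower than basal cells (log2 ratio -2.93 ± 0.17, SD, n = 3 libraries). The log2 ratio of placode to basal cells was 0.02 ± 0.02, and it was -0.10 when cluster 8 was left out. Placode cluster 10 held 28 of the 90 placode cells of the total epithelium library, against 16 of 619 and 8 of 690 in the placode-enriched libraries. In the total epithelium library it had 885 CPM, against 1616, 3702 and 1753 CPM in clusters 6, 8 and 9. The part of this cluster mix in the ratio and its narrow spread was not tested. Edge cells stood above basal cells in each of the 3 libraries, by 0.24 ± 0.10 on the log2 scale.

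Pdpn followed the same layout. Suprabasal cells had 8.79, 14.9 and 6.43 CPM, which rests on 6, 15 and 47 UMIs (95% intervals 3.23 to 19.1, 8.36 to 24.6 and 4.72 to 8.55 CPM). Placode cells had 49.97, 45.3 and 48.3 CPM, edge cells 51.8, 49.8 and 74.3 CPM, and basal cells 64.8, 50.5 and 45.3 CPM. The suprabasal values did not overlap the basal ones, and the placode and edge values did. The mean log2 ratio to basal cells was -2.49 ± 0.63 in suprabasal cells, a 5.60-fold lower level, against -0.15 ± 0.24 in placode cells and 0.12 ± 0.53 in edge cells (SD, n = 3). The edge value rests on the total epithelium library: without it the ratio was -0.17.

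Lmo1 was lower than in basal cells in all 3 other classes. Suprabasal cells had 93.8, 78.6 and 83.4 CPM, placode cells 98.3, 92.3 and 209 CPM, edge cells 130.1, 130.1 and 229 CPM, and basal cells 396, 397 and 466 CPM. In every library the 3 classes lay below the basal level, and the ranges of the 3 libraries did not overlap it. The mean log2 ratio to basal cells was -2.30 ± 0.20 in suprabasal cells (4.92-fold lower), -1.76 ± 0.52 in placode cells (3.38-fold lower) and -1.41 ± 0.34 in edge cells (2.66-fold lower; SD, n = 3). The placode difference was -2.01 and -2.11 in the placode-enriched libraries, against -1.15 in the total epithelium library, which was the smallest of the 3. The summed level of the 8 suprabasal markers in placode cells was 196 to 232 CPM in the placode-enriched libraries, against 1049 CPM in the total epithelium library. The cluster mix differed as well: clusters 9 and 10 held 29 and 28 of the 90 placode cells of the total epithelium library. They held 205 and 16 of 619 and 223 and 8 of 690 in the placode-enriched libraries. In the total epithelium library they had 224 and 249 CPM of Lmo1, against 121 and 166 CPM in clusters 6 and 8. The part of either difference in the Lmo1 value was not tested.

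Set side by side, the 3 genes share the low level in suprabasal cells and part ways in the placode. Of the 3, Lmo1 was lower in placode than in basal cells, whereas Cxcl14 and Pdpn in placode cells lay within the spread of the basal libraries, so a loss in the placode describes Lmo1 alone. Between neighbours in the order of levels, the Cxcl14 means of placode and basal cells, 2003 ± 285 and 1976 ± 265 CPM, lie within their spread, as do the Pdpn means of edge, basal and placode cells, 58.7 ± 13.6, 53.6 ± 10.1 and 47.9 ± 2.39 CPM (SD, n = 3). The Lmo1 means of edge and placode cells, 163 ± 57.0 and 133 ± 65.9 CPM, overlap too. Within each library placode cells were still lower than edge cells (log2 ratio -0.34 ± 0.19). The classes also differed in cell-cycle phase, scored as given below: 61.26% of placode and 47.95% of basal cells were in G2/M. In edge clusters 2, 3 and 4 the G2/M share was 16.03%, 3.07% and 0.54%. The part of phase in the class ratios of the 3 genes was not tested. In the fits across all genes that test suprabasal, placode and edge cells against basal cells, 36.3%, 37.3% and 33.7% of the genes tested passed an adjusted p of 0.05, so a difference between these classes is common. The 3 genes passed the low-count filter of each fit. The class difference chose the genes, so nothing is read from these shares.

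**Figure D1:**
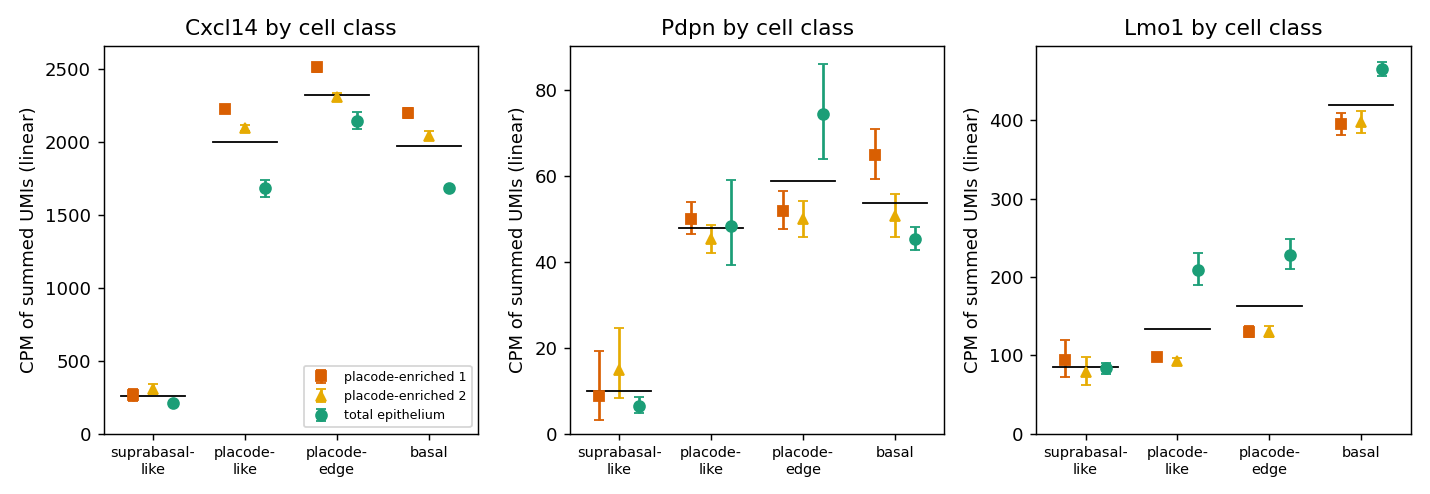
CPM of summed UMIs for each gene (linear axis from 0) in suprabasal, placode, edge and basal cells; points are the 3 libraries, bars exact Poisson 95% intervals. Suprabasal points are the lowest for Cxcl14 and Pdpn, and for Lmo1 the placode and edge points also lie below the basal points of 396 to 466 CPM.

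The suprabasal ratios depend on how the class was drawn. At a finer clustering (resolution 2), with 17, 17 and 243 suprabasal cells, the log2 ratios to basal cells were -3.59 for Cxcl14, -3.71 for Pdpn and -3.08 for Lmo1. When cluster 11, which had 3 of the 8 suprabasal and 4 of the 7 edge markers, was counted as suprabasal, the Cxcl14 ratio was -2.61. Cluster 11 was led by Zfp750, Pvrl4 and Calm4 and stayed unnamed. Its Cxcl14 level was 510, 405 and 236 CPM, its Pdpn level 14.3, 9.40 and 5.49 CPM and its Lmo1 level 64.2, 63.5 and 132 CPM. Its mean log2 ratios to basal cells were -2.43 ± 0.37 for Cxcl14, -2.55 ± 0.45 for Pdpn and -2.36 ± 0.47 for Lmo1 (SD, n = 3).

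Free RNA in droplet libraries gives some UMIs in cells that do not make a transcript, so the suprabasal levels were set beside melanoblast-like cells, a lineage from the neural crest. In the total epithelium library, 20 melanoblast-like cells had 169.8 CPM of Cxcl14 (95% interval 135 to 211), 8.39 CPM of Pdpn (2.28 to 21.5) and 52.4 CPM of Lmo1 (33.9 to 77.4). The suprabasal cells of that library had 209.8, 6.43 and 83.4 CPM. The Lmo1 suprabasal interval, 76.9 to 90.3 CPM, met the melanoblast-like one only at its edge, and the intervals for Cxcl14 and Pdpn overlapped more widely. The levels of these 2 kinds of cell were not compared by a test, and the part of free RNA in the suprabasal levels was not tested. The number of Cxcl14 UMIs per Lmo1 UMI was 2.51 in suprabasal, 8.04 in placode, 9.39 in edge, 3.62 in basal and 3.24 in melanoblast-like cells of that library. The number of Cxcl14 UMIs per Pdpn UMI was 32.6, 34.8, 28.9, 37.2 and 20.3 in the same order.

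Shares of cells with a UMI, without thinning, were lowest in suprabasal cells for Pdpn, whereas Cxcl14 was near its ceiling in every class. A Cxcl14 UMI was seen in 96.4% to 100% of suprabasal cells and in 100% of placode, edge and basal cells of each library. A Pdpn UMI was seen in 20.8%, 32.1% and 14.8% of suprabasal cells, in 64.0%, 59.6% and 56.7% of placode cells, in 58.1%, 57.1% and 63.9% of edge cells and in 76.5%, 68.7% and 56.3% of basal cells. The share for Pdpn in melanoblast-like cells was 20% (exact binomial 95% interval 5.73% to 43.7%), and the suprabasal share of the total epithelium library, which lies below it, is not read as expression. Median depths were 24568.5 UMIs for suprabasal and 21282.5 UMIs for melanoblast-like cells there. A Lmo1 UMI was seen in 60.7% to 75.5% of suprabasal, 66.2% to 92.2% of placode, 75.1% to 86.5% of edge and 98.5% to 99.7% of basal cells, against 65.0% of melanoblast-like cells.

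With each cell thinned to 5000 UMIs, which left out 0 cells, depth no longer differs between classes. Cxcl14 was then seen in 83.3%, 60.7% and 64.1% of suprabasal cells and in 97.8% to 100% of placode, edge and basal cells. Pdpn was seen in 0 of the 24 suprabasal cells of the first placode-enriched library, which allows up to 14.2% (exact binomial 95% interval), in 14.3% of those of the second and in 2.41% of those of the total epithelium library. Placode, edge and basal shares for Pdpn were 19.6% to 22.3%, 21.1% to 27.8% and 18.4% to 23.8%. Lmo1 was seen in 20.8%, 28.6% and 29.7% of suprabasal cells, 31.2%, 29.4% and 57.8% of placode cells, 40.1%, 40.5% and 54.9% of edge cells and 82.3%, 83.0% and 87.6% of basal cells. The Lmo1 shares of suprabasal and placode cells overlapped, and the basal shares lay above all others. The median basal cell held 60, 56 and 34 Cxcl14 UMIs before thinning, against 6, 5 and 5 in suprabasal cells, and single basal cells reached 207. Intervals on UMIs and cells cover counting error only.

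**Figure D2:**
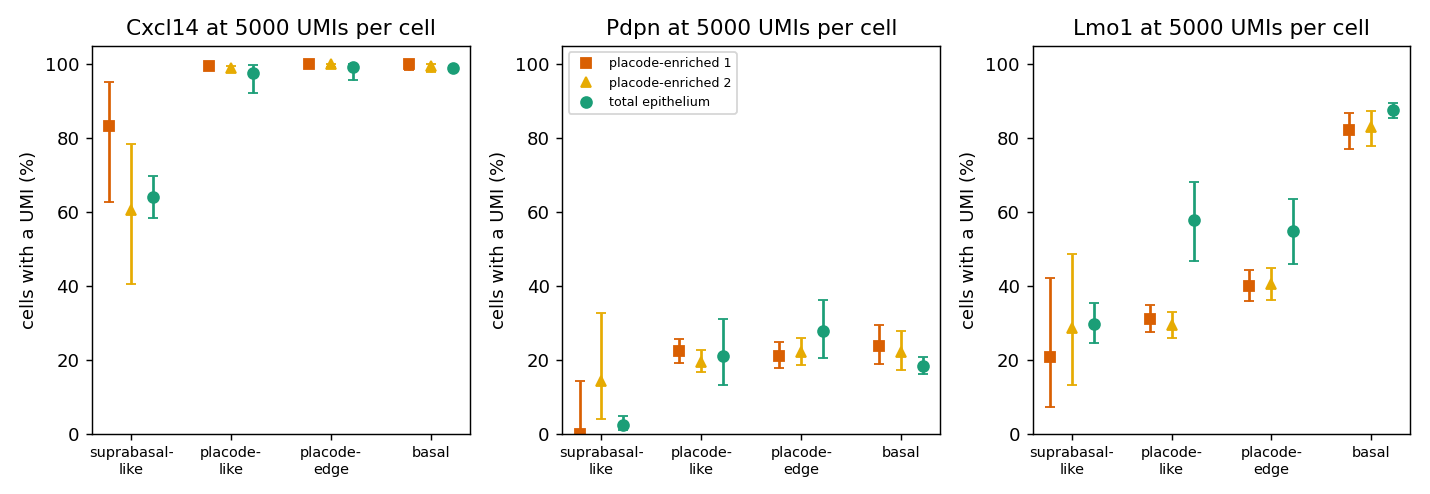
Share of cells with at least 1 UMI of each gene after thinning to 5000 UMIs per cell (y axis, percent), by class; points are libraries and bars exact binomial 95% intervals. Lmo1 was seen in 82.3% to 87.6% of basal cells and in fewer cells of each other class.

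Within the placode class the 3 genes varied on different scales. Pdpn lay between 42.0 and 61.0 CPM in every basal, edge and placode cluster, pooled over libraries. By library it spread wider: edge cluster 3 had 53.5 and 49.9 CPM in the placode-enriched libraries and 91.2 CPM (95% interval 74.4 to 111) in the total epithelium library. Lmo1 had 439, 428 and 445 CPM in basal clusters 0, 1 and 5, and 169, 169 and 59.5 CPM in edge clusters 2, 3 and 4. In placode clusters 6, 13 and 8 it had 55.8, 56.5 and 71.2 CPM, whereas clusters 9 and 10, the placode clusters with the least Shh, had 146 and 227 CPM. By library, in the order placode-enriched 1, placode-enriched 2 and total epithelium, Lmo1 had 60.1, 55.9 and 85.7 CPM in edge cluster 4, 51.6, 54.0 and 121 CPM in placode cluster 6, and 74.7, 64.1 and 166 CPM in placode cluster 8. The total epithelium value was the highest in each of these clusters and rests on 25, 19 and 10 cells, so the order of the clusters differs between the libraries. Cxcl14 had 1741 CPM in cluster 6, 2430.1 in cluster 8, 2203 in cluster 9 and 2546 in cluster 13, against 1574 to 2263 CPM in the basal clusters. Cluster 10 stood apart with 842 CPM: it held 16, 8 and 28 cells, had Sprr2a3, Dkk4, Ccl20, Krt16 and Cxcl10 among its 10 leading genes, and had 772 CPM in the first placode-enriched library and 885 CPM in the total epithelium library. In cluster 8 Cxcl14 stood at 2441 and 2364 CPM in the placode-enriched libraries, against 3702 CPM in the 10 cells of the total epithelium library.

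**Figure D3:**
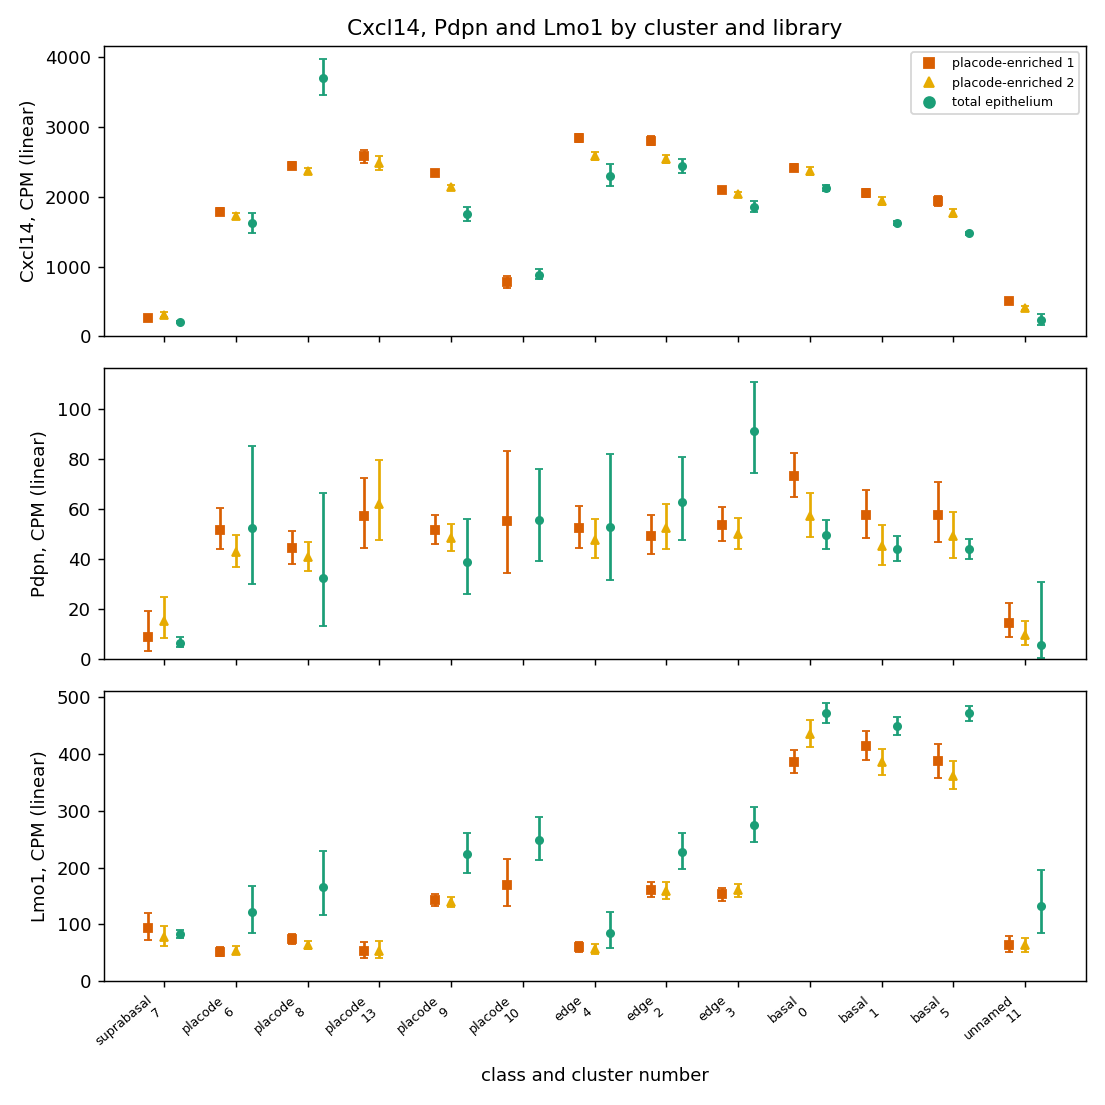
CPM of each gene (linear y axes from 0) by cluster (x axis, class and cluster number) and library, with exact Poisson 95% intervals; a library with under 10 cells in a cluster has no point. Lmo1 is highest in the 3 basal clusters, and cluster 10 has the lowest Cxcl14 of the placode clusters.

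Markers of other cell types were read in the same sums. Of 9 fibroblast markers 6 were in both tables, and their summed level was 196 to 269 CPM in suprabasal, 1078 to 1609.9 in placode, 968 to 1143 in edge and 664 to 825 CPM in basal cells, with Col1a1 at 0 in 2 of the placode sums. The 7 periderm markers summed to 2113 to 2544 CPM in suprabasal and 516 to 801 CPM in basal cells. Their part in the class levels was not tested. Lymphatic endothelial cells carry podoplanin. The 2 of 7 endothelial markers in both tables summed to at most 7.39 CPM in any class and library. Pdpn stood at 45.3 to 74.3 CPM in placode, edge and basal cells. Both highest values were those of edge cells of the total epithelium library. The part of endothelial cells in the Pdpn levels was not tested. Of the 7 immune markers 2 were in both tables, at 1.99 CPM or less.

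Across the 12 sums of 4 classes and 3 libraries, log2(CPM + 1) of Cxcl14 and Pdpn had a Pearson correlation of 0.974, whereas Lmo1 had 0.531 with Cxcl14 and 0.595 with Pdpn. These are descriptions: sums of 1 library share their depth and preparation, and the classes set most of the range. Of 5474 other genes with a mean of at least 20 CPM, those most like Cxcl14 were Sfr1 (0.993), Trp63 (0.992), Lfng (0.991), Fth1 (0.989) and 5930412G12Rik (0.987). Trp63, a transcription factor of stratified epithelia and 1 of the basal markers, had mean levels of 101 CPM in suprabasal, 275 in placode, 308 in edge and 262 CPM in basal cells. Lfng, a glycosyltransferase that modifies Notch, had 6.60, 56.8, 82.4 and 57.1 CPM in that order. Those most like Pdpn were Tgif2 (0.977), Itgb1 (0.977), Gm13219 (0.976), Arhgef16 (0.975) and Cxcl14 itself (0.974). Itgb1, the beta 1 integrin, had 31.1 CPM in suprabasal, 87.8 in placode, 85.5 in edge and 86.5 CPM in basal cells. Those most like Lmo1 were Igfbp2 (0.970), Wls (0.967), Avpi1 (0.964), Bcam (0.960) and Nnt (0.954). Igfbp2, a secreted binding protein of insulin-like growth factors, had 93.8, 159.6, 178 and 346 CPM, and Wls, the carrier of Wnt proteins to the cell surface, had 128, 169, 219 and 362 CPM, so both had their highest level in basal cells like Lmo1.

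**Figure D4:**
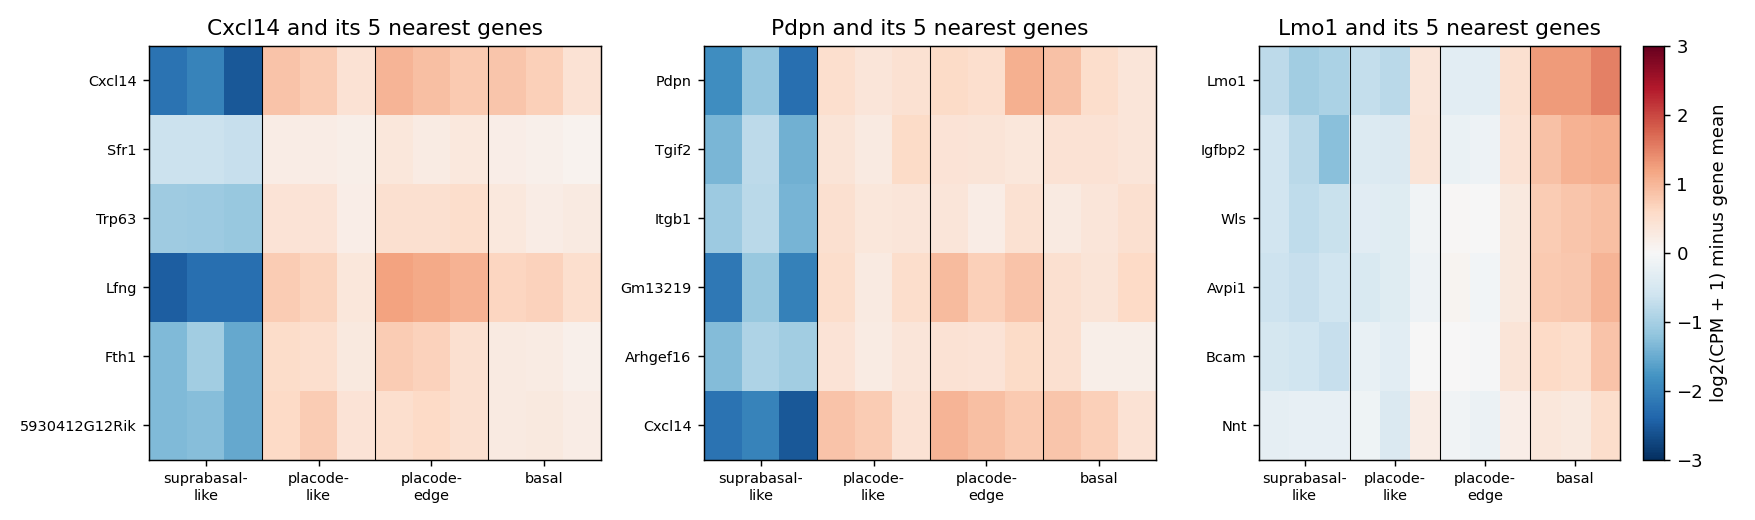
Each gene and the 5 genes most like it over 12 sums of 4 classes and 3 libraries, as log2(CPM + 1) minus the gene's own mean over the sums (colour); columns run from suprabasal to basal. The Cxcl14 and Pdpn panels are low in suprabasal columns, and the Lmo1 panel is high in basal columns.

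Genes that act with the 3 were followed in 4 lists, chosen with earlier results of these data known and read from edgeR's quasi-likelihood test with Benjamini-Hochberg adjustment over all genes tested, the library as a block. In placode against basal cells 19.3% of the 5906 genes tested were higher and 18% lower, with a median log2 fold change of 0.01. Of 44 listed chemokine ligands and receptors, 13 could be tested, of which 8 were higher and 3 lower (median 2.49). Only 7 could be tested in suprabasal against basal cells. Genes very low in basal cells, such as Cxcl10, Ccl20 and Cxcr4 below, passed the low-count filter here through the placode sums, where they were high. The filter thus partly sets this count and median, and nothing is read from them. The levels of these genes are therefore given as a description with no test. Cxcl10, a ligand of Cxcr3, stood at 10.7 CPM in placode cells and 0.336 CPM in basal cells. Ccl20 stood at 7.37 and 0.308 CPM and Cxcr4, the receptor of Cxcl12, at 11.9 and 0.574 CPM. Ackr3, a chemokine-scavenging receptor, was the reverse, with 10.97 CPM in placode cells and 42.5 CPM in basal cells (log2 fold change -1.84 ± 0.10, SE, adjusted p = 2.92e-10). Cluster 10, which held 3.72% of the placode cells, held 8.97% of the placode UMIs of Cxcl10, 18.1% of those of Ccl20 and 8.99% of those of Cxcr4. Without it the placode means were 10.2, 4.98 and 11.7 CPM. With cells thinned to 5000 UMIs, 3 chemokine genes were called higher.

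Of 28 podoplanin partners and genes of the route from ezrin, radixin and moesin to the actin cytoskeleton, 9 were higher and 7 lower in placode cells (median 0.01). Cd82, a tetraspanin, stood at 32.3 CPM in placode cells and 20.8 CPM in basal cells (0.66 ± 0.09, adjusted p = 1.52e-05), and Limk2, a kinase that acts on cofilin, fell to 30.7 CPM against 45.1 CPM in basal cells (-0.59 ± 0.08, adjusted p = 2.01e-05). Limk2 was not called without the block or with cells thinned. Of 17 genes of the LMO and LDB complex, from which Lhx2 was left out as a naming marker, 11 were higher and 3 lower (median 0.34), with 5 higher when the library block was dropped and 6 when cells were thinned. Gata6 and Lmx1a of this list stood at 0.128 and 0.210 CPM in basal cells and passed the low-count filter through the placode sums. Nothing is read from this count and median. Tcf4, an E-box-binding factor, stood at 145 and 94.8 CPM in placode and basal cells (0.61 ± 0.05, adjusted p = 6.47e-08). Lmo4, another LIM-only gene, fell to 87.6 CPM in placode cells against 129 CPM in basal cells (-0.52 ± 0.06, adjusted p = 2.99e-06). Of 34 genes of the basal layer that named no cells, 8 were higher and 19 lower (median -0.31), and 12 were lower without the block. Gas1, a membrane protein that binds Shh, fell to 68.2 CPM against 313 CPM in basal cells (-2.20 ± 0.05, adjusted p = 7.90e-15), and Igfbp5 fell to 54.5 CPM against 229 CPM (-2.14 ± 0.06, adjusted p = 2.62e-13). The fibroblast marker sums were higher in placode cells, at 1078 to 1609.9 CPM, than in basal cells, at 664 to 825 CPM. Their part in the counts was not tested. Postn, at 384 CPM in placode and 262 CPM in basal cells, is both a fibroblast marker and a gene of the basal-layer list.

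In suprabasal against basal cells 17.2% of 5647 genes were higher and 19.2% lower, with a median of -0.04. Of 7 chemokine genes tested, 1 was higher and 4 were lower (median -1.54). Among the lower ones, Ackr4 and Cxcl16 stood at 0.534 and 0.755 CPM in suprabasal cells and 3.93 and 2.44 CPM in basal cells. They passed the low-count filter through the basal sums, so nothing is read from this count and median. The higher chemokine gene was Cx3cl1, at 13.8 and 7.77 CPM (0.64 ± 0.25, adjusted p = 0.0443), which was not called with DESeq2 or without the block. Ackr3 fell to 5.64 CPM in suprabasal cells against 42.5 CPM in basal cells (-2.83 ± 0.19, adjusted p = 1.12e-12) and Ccl27a, a keratinocyte chemokine, to 13.47 against 29.5 CPM (-1.54 ± 0.20, adjusted p = 5.97e-07). Of 28 podoplanin partners, 10 were higher and 5 lower (median 0.03), and 2 were lower without the block or with cluster 11 counted as suprabasal. Cd44, a membrane partner of podoplanin, stood at 30.3 CPM in suprabasal cells and 4.89 CPM in basal cells (2.67 ± 0.22, adjusted p = 8.17e-11), and Limk2 at 169 and 45.1 CPM (1.80 ± 0.11, adjusted p = 1.92e-13). Ezr, which encodes ezrin and is named here after its values were seen, stood at 268 and 76.5 CPM (1.77 ± 0.09, adjusted p = 1.29e-15). Rdx, which encodes radixin, went the other way, at 176 and 228 CPM (-0.46 ± 0.09, adjusted p = 1.71e-04). Msn, which encodes moesin and is named beside them, was not called, at 2.65 and 2.90 CPM (-0.76 ± 0.51, adjusted p = 0.263). Of 15 genes of the LMO and LDB complex, 4 were higher and 6 lower (median -0.25), with 0 lower at resolution 0.5 or when cluster 11 was counted as suprabasal. Id2, an inhibitor of helix-loop-helix factors, stood at 71.0 CPM in suprabasal cells and 13.9 CPM in basal cells (2.38 ± 0.14, adjusted p = 7.96e-14), and Gata3 at 287 and 149 CPM (0.91 ± 0.08, adjusted p = 5.82e-10). Among the lower ones, Id3 stood at 135 and 231 CPM (-0.93 ± 0.12, adjusted p = 4.50e-07) and Tcf4 at 52.1 and 94.8 CPM (-0.93 ± 0.11, adjusted p = 6.63e-08). Of 33 basal-layer genes, 4 were higher and 25 lower (median -1.35), among them Wnt10a at 8.22 CPM in suprabasal cells and 58.7 CPM in basal cells (-2.95 ± 0.17, adjusted p = 3.46e-14). Perp, a desmosome gene, went against its list, with 2864 CPM in suprabasal cells and 715 CPM in basal cells (1.97 ± 0.06, adjusted p = 1.86e-19).

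In edge against basal cells 16.7% of 5816 genes were higher and 16.9% lower, with a median of 0.00 (-8.36e-04). Chemokine genes were higher in 5 and lower in 3 of 11 (median 0.34), and podoplanin partners in 8 and 5 of 28 (median -0.03). LMO and LDB genes were higher in 9 and lower in 2 of 17 (median 0.27), and basal-layer genes in 9 and 16 of 34 (median -0.18). Ccl20, Cxcl10, Cxcl12 and Cxcr4 stood at 0.253 to 0.574 CPM in basal cells and passed the low-count filter through the edge sums. Gata6 and Lmx1a did so in the LMO and LDB list. Nothing is read from the counts of these lists. Lmo4 stood at 91.3 CPM in edge cells and 129 CPM in basal cells (-0.52 ± 0.06, adjusted p = 2.38e-05) and Ackr3 at 23.4 and 42.5 CPM (-0.98 ± 0.10, adjusted p = 3.92e-06). Without the block 5 LMO and LDB genes were higher, 0 podoplanin partners were lower and 9 basal-layer genes were lower. Placode, edge and suprabasal cells were each set against the same basal cells. Lmo4, which fell in placode and edge cells, stood at 167 CPM in suprabasal cells and 129 CPM in basal cells (0.35 ± 0.09, adjusted p = 0.00264), a call lost without the block and with cells thinned.

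Comparisons within a class did not enter the choice of the 3 genes and were tested, although the comparison by Shh and Sox9 splits placode cells by naming markers. Cell-cycle phase was scored from 42 S and 54 G2/M genes, and 146 of 1564 basal cells (9.34%) and 110 of 1399 placode cells (7.86%) lay near a boundary between phases. In basal cells, Cxcl14 stood at 2335, 2268 and 1994 CPM in G2/M cells of placode-enriched libraries 1 and 2 and the total epithelium library, against 1874, 1889.8 and 1621 CPM in G1 cells. G2/M cells were higher in 3 of 3 libraries, by 0.28 ± 0.03 on the log2 scale (SE, edgeR quasi-likelihood adjusted p = 1.48e-07), in a fit that called 14.1% of 10278 genes, 7.97% as higher and 6.13% as lower. Without the library block the adjusted p was 0.223. Pdpn stood at 68.9, 51.9 and 46.6 CPM in G2/M cells and 61.5, 38.8 and 37.9 CPM in G1 cells, higher in 3 of 3 libraries and short of the threshold (0.28 ± 0.12, adjusted p = 0.138). Lmo1 stood at 399, 415 and 461 CPM in G2/M cells and 389, 336 and 489 CPM in G1 cells, with no common direction (0.02 ± 0.06, adjusted p = 0.888). The basal sums held 172, 150 and 428 G2/M cells and 21, 28 and 191 G1 cells. Their median depth was 25088.5 to 37201.5 UMIs in G2/M and 17991 to 21912 UMIs in G1 cells.

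In placode cells the same test called 30.6% of 9742 genes, 16.3% as higher and 14.3% as lower. Cxcl14 stood at 2434, 2269.8 and 2177 CPM in G2/M cells and 1815, 1798 and 1591 CPM in G1 cells, higher in each library (0.41 ± 0.04, SE, edgeR adjusted p = 8.25e-17). Lmo1 stood at 108, 102 and 208 CPM in G2/M cells and 50.7, 55.1 and 155 CPM in G1 cells, again higher in each (0.94 ± 0.09, adjusted p = 1.40e-15). Pdpn stood at 49.6, 45.2 and 39.1 CPM in G2/M cells and 45.7, 43.7 and 43.1 CPM in G1 cells (0.09 ± 0.11, adjusted p = 0.560). The phases differed in other respects: 47.8%, 49.3% and 67.4% of the G2/M placode cells were in the low-Shh clusters 9 and 10, against 0%, 0% and 6.67% of the G1 cells, and the median depth was 23961.5 to 29074 UMIs in G2/M and 14279 to 18309 UMIs in G1 cells. With clusters 9 and 10 left out, the Lmo1 difference was 0.32 (adjusted p = 0.0178), with cells thinned it was 0.50 (adjusted p = 0.0108), and with cluster 8 left out it was 1.24. The Cxcl14 difference was 0.51 (adjusted p = 1.59e-40) without clusters 9 and 10.

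The phase difference of Lmo1 was larger in placode than in basal cells by 0.92 ± 0.11 on the log2 scale (SE, edgeR interaction term, adjusted p = 2.46e-15, n = 3 libraries), a test added after the values were seen. Of 10607 genes, 3.94% passed this test, 2.39% upward and 1.55% downward. With the low-Shh clusters 9 and 10 left out, the difference was 0.31 (adjusted p = 0.271), with cells thinned it was 0.60 (adjusted p = 0.0947), and without the library block it was 0.99 (adjusted p = 0.554). For Cxcl14 the difference between classes was 0.12 ± 0.06 (adjusted p = 0.343), and 0.23 (adjusted p = 0.00372) without clusters 9 and 10. For Pdpn it was -0.21 ± 0.17 (adjusted p = 0.678).

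Shh-only placode cells (Shh seen, Sox9 not) were compared with Sox9-only ones (Sox9 seen, Shh not), 233, 260 and 32 cells against 128, 134 and 23. Shh is a placode and Sox9 an edge naming marker, so this split is not independent of the classes across which the genes were chosen. Clusters 9 and 10 held 13.7%, 15.4% and 37.5% of the Shh-only cells and 56.25%, 47.0% and 78.3% of the Sox9-only cells. Cxcl14 was lower in the Shh-only cells, at 1914, 1740.3 and 1612 CPM against 2837, 2631 and 2152 CPM in Sox9-only cells (log2 fold change -0.53 ± 0.03, SE, edgeR adjusted p = 6.20e-13, lower in 3 of 3 libraries). Lmo1 was lower too, at 64.2, 63.0 and 148 CPM against 121, 116 and 229 CPM (-0.83 ± 0.08, adjusted p = 4.08e-09), with an adjusted p of 0.141 without the library block. Pdpn stood at 48.9, 46.3 and 40.3 CPM in Shh-only cells and 46.9, 44.0 and 44.3 CPM in Sox9-only cells (0.08 ± 0.10, adjusted p = 0.684). The fit called 18.1% of 10291 genes, 9.22% as higher and 8.87% as lower. Of 33 basal-layer genes 6 were higher and 17 lower in Shh-only cells (median -0.38, against 0.01 over all genes). G2/M cells made up 43.3%, 40% and 37.5% of the Shh-only cells and 84.4%, 83.6% and 82.6% of the Sox9-only cells, and the median depth was 16919 to 20358 and 24845 to 30100 UMIs. With clusters 9 and 10 left out the differences were -0.52 for Cxcl14 (adjusted p = 1.05e-21) and -0.70 for Lmo1 (adjusted p = 1.94e-06). The part of phase in them was not tested.

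**Figure D5:**
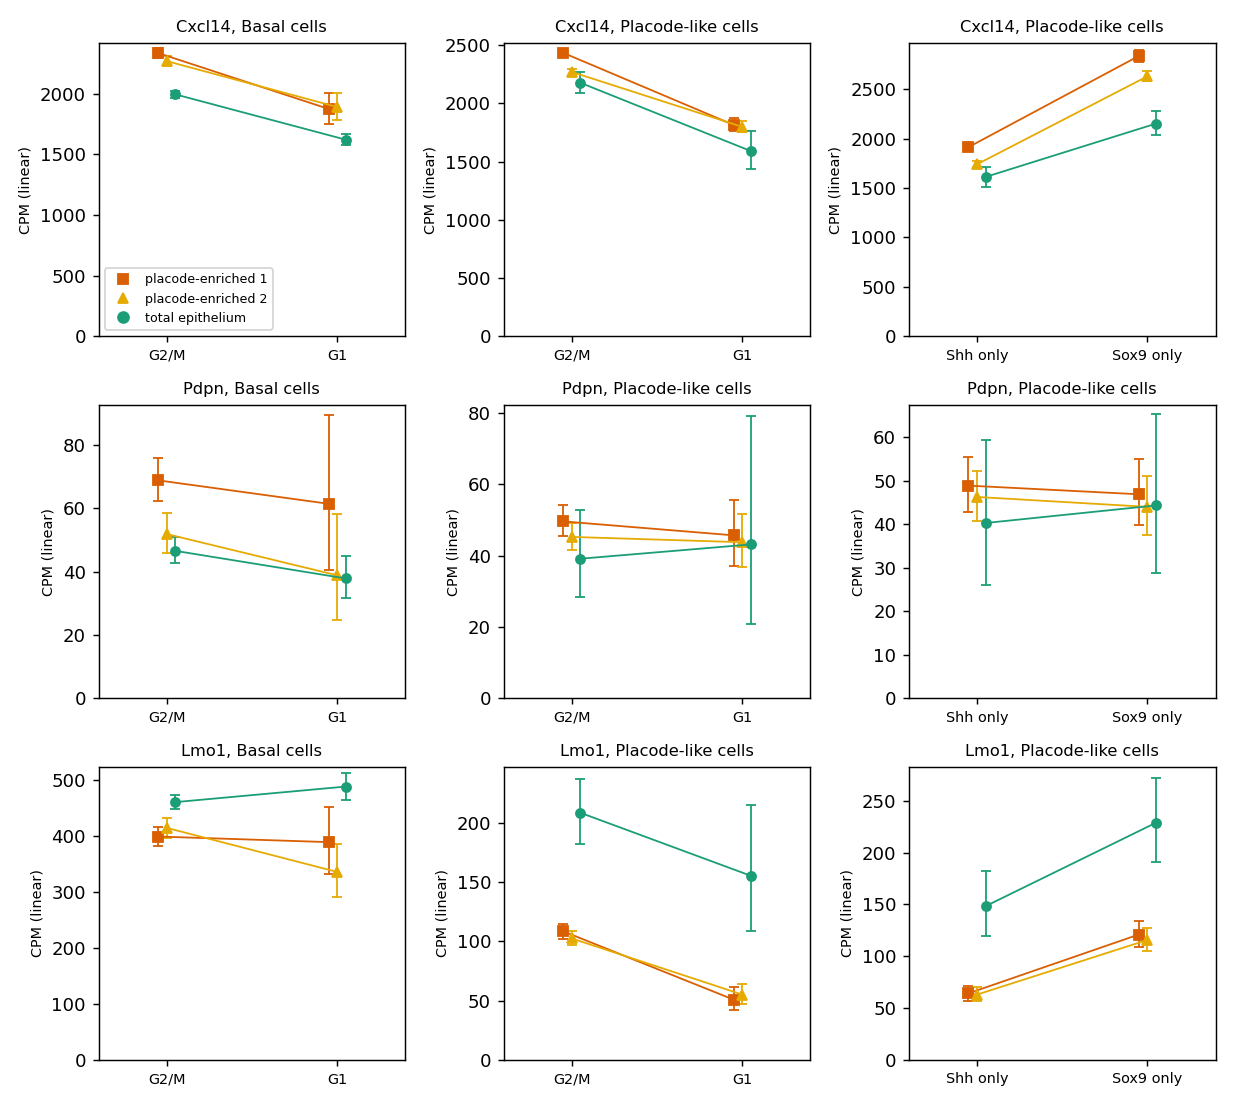
CPM of each gene (linear axes from 0) within basal and placode cells: G2/M beside G1 cells, and Shh-only beside Sox9-only placode cells; lines join the sums of 1 library, bars are exact Poisson 95% intervals. Cxcl14 is higher in G2/M cells and lower in Shh-only cells in each library, as is Lmo1 in the placode panels, while Pdpn is higher in G2/M basal cells of each library, short of the threshold, and has no common direction in the placode panels.

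Basal cells of the placode-enriched libraries, which had passed the MAdCAM-1 gate, were set beside those of the total epithelium library. The ungated group is 1 library with no spread of its own, and the gated libraries leave 1 residual degree of freedom. The p-values therefore rest mainly on a spread shared across genes, not on each gene's own spread in the gated libraries. They also assume that the ungated library varies like the gated ones. The gate and that library cannot be told apart. Cxcl14 stood at 2199 and 2045 CPM in gated and 1684 CPM in ungated basal cells (0.39 ± 0.12, SE, edgeR adjusted p = 0.0175), and Pdpn at 64.8 and 50.5 CPM against 45.3 CPM (0.41 ± 0.14, adjusted p = 0.0340). Lmo1 stood at 396 and 397 CPM in gated and 466 CPM in ungated cells (-0.17 ± 0.12, adjusted p = 0.411). The fit called 10.5% of 11508 genes, 6.2% as higher and 4.28% as lower. With DESeq2 the adjusted p was 0.132 for Cxcl14 and 0.831 for Pdpn, and without the filter on low counts 0.325 and 0.386, so no difference is read from these values. Pdpn also missed the threshold at resolution 0.5 (adjusted p = 0.105) and resolution 2 (adjusted p = 0.211), and its difference was 0.16 without the first placode-enriched library. The median depth of basal cells was 30199.5 and 29990 UMIs in gated and 21875 UMIs in ungated libraries.

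Joint variation of the 3 genes in single cells was given by rank correlations. Among 260, 265 and 1039 basal cells thinned to 5000 UMIs, the rank correlations between pairs of the genes lay between -0.08 and 0.12. In placode and edge cells they lay between -0.12 and 0.17. Among suprabasal cells the highest was 0.40, for Cxcl14 and Lmo1 in the 28 cells of the second placode-enriched library, against 0.06 and 0.04 for that pair in the first and in the total epithelium library. These are descriptions of sparse counts.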

How the data were processed

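The authors deposited raw UMI counts (10x Genomics 3' libraries, genes by cells), as the file headers and whole-number values show. Per the submitters' processing notes, Cell Ranger, Seurat and mm10 were used, with no version. Annotation, strandedness and cell filters are not given in the sources used here. In the table of both placode-enriched libraries, the number ending a cell barcode was read as the library number, and a swap would change only the names.

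The members and lists were chosen with earlier results of these data known. From the counts, scrublet in scanpy 1.11.5 (expected rate 0.05) removed 4, 2 and 18 cells of placode-enriched libraries 1 and 2 and the total epithelium library, which is few, and kept 1507, 1569 and 1583 cells that may still include doublets. Every cell had at least 5344 UMIs. Cells were clustered (Leiden, igraph 0.11.9, resolution 1, 20 neighbours, 30 components, 1000 variable genes of 7285) on one set of symbols drawn by a hash, without members, markers and lists. Names needed 6 of 9 placode or 5 of 7 edge markers at 25% of the highest cluster, 7 of 7 basal at 50%, 4 of 8 suprabasal at 25% or 5 of 6 melanoblast markers at 50%, cut-offs chosen once the clusters had been seen. UMIs were summed per library and class (CPM over all 14656 genes) and tested with edgeR 4.0.16 (R 4.3.3): quasi-likelihood test, TMM, filterByExpr, Benjamini-Hochberg at 0.05. The library was the block in the main fits, since groups compared are cells of the same library; 3 libraries from pooled littermates are the replicates. Class contrasts tested the set of genes left out of clustering plus members and lists. The gated comparison had 1 residual degree of freedom. Alternatives were DESeq2 1.42.0, its size factors, no filter, no block, other resolutions, the other gene set, thinning to 5000 UMIs and leaving out each library. On simulated counts the edgeR step recovered 86.5% to 99.5% of 200 genes changed by 1 on the log2 scale, depending on the comparison. Genes named from lists were up to 4 per direction with the largest change past the threshold, and the 5 genes most correlated with each member; exceptions are marked. Interval levels are 95%.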

Additional observations from a re-analysis of the deposited data

Results flagged for a closer look

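The G2/M minus G1 difference of Lmo1 was 0.9151 larger on the log2 scale in placode than in basal cells (SE 0.11, edgeR interaction term with the library block, adjusted p = 2.46e-15). In placode cells G2/M exceeded G1 in 3 of 3 libraries, and in basal cells in 2 of 3. The test was added after the values were seen, and 3.94% of 10607 genes passed it. It missed the threshold without the low-Shh clusters 9 and 10 (0.31, adjusted p = 0.271), with cells thinned to 5000 UMIs (0.60, adjusted p = 0.0947) and without the library block (0.99, adjusted p = 0.554).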

How the results depend on the processing

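Under DESeq2's size factors in edgeR, no member test changed direction or crossed the threshold. Higher and lower calls over all genes, against 1137 and 1063 (placode), 969 and 1083 (suprabasal), 974 and 985 (edge, each against basal), 819 and 630 (G2/M against G1 basal), 1590 and 1390 (G2/M against G1 placode) and 949 and 913 (Shh-only against Sox9-only), came in the same order to 626 and 483, 706 lower for suprabasal, 540 and 382, 300 and 72, 664 and 492, and 274 and 286 without the replicate block; to 627 and 563, 630 and 547, 458 and 442, 291 and 161, 604 and 383, and 224 and 270 with DESeq2; and to 477 and 453, 384 and 430, 355 and 406, 270 and 195, 605 and 527, and 318 and 322 with cells thinned to 5000 UMIs. Leaving out 1 library gave 712 to 1290 and 626 to 1183 (placode), 640 to 972 lower (suprabasal), 608 to 1239 and 484 to 1172 (edge), 322 to 732 and 255 to 511 (G2/M basal), 628 to 1725 and 460 to 1502 (G2/M placode), and 430 to 1013 and 485 to 968 (Shh-only). Without the low-Shh clusters, 842 genes were lower in G2/M placode cells, and 458 were higher and 565 lower in Shh-only cells. Gated against ungated basal cells gave 714 and 492 calls, 77 and 59 with DESeq2, and 2 and 1 without the filter on low counts. Counts within the 4 gene lists moved by over 1.5 times in 37 cases and stayed within that in 211, and single list genes missed the threshold in 75 cases and kept direction and side in 808. The causes were not tested; fewer samples enter when a library is left out.

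Without the replicate block, Cxcl14 in G2/M basal cells (0.28, adjusted p = 0.223), Lmo1 in Shh-only cells (-0.83, adjusted p = 0.141) and the Lmo1 phase difference between classes (0.99, adjusted p = 0.554) missed the threshold; the pairing comes from the groups compared being cells of the same libraries. That Lmo1 difference was 0.60 with thinned cells and 0.31 without the low-Shh clusters, where the Cxcl14 one was 0.23 and passed. The gated differences were 0.39 (Cxcl14) and 0.40 (Pdpn) with DESeq2, 0.38 and 0.40 without the filter, and 0.33 and 0.30 for Pdpn at resolutions 0.5 and 2. Uncalled values changed sign for Lmo1 in G2/M basal cells (-0.11 thinned; -0.062 to 0.15 with 1 library left out), Pdpn in G2/M placode cells (-0.0040 without low-Shh clusters) and Pdpn in Shh-only cells (-0.0088 thinned). Class ratios to basal cells moved at resolution 2 (suprabasal Cxcl14 -3.59, Pdpn -3.71, Lmo1 -3.08; placode Cxcl14 -0.10; edge Lmo1 -1.77), at resolution 0.5 (placode Cxcl14 0.10; no edge class formed), with the other gene set (suprabasal Cxcl14 -3.13 and Lmo1 -2.54; placode Cxcl14 -0.092; edge Pdpn -0.086), with cluster 11 added (suprabasal Cxcl14 -2.61) and without cluster 8 (placode Cxcl14 -0.10). With 1 library left out the edge Pdpn ratio was -0.17 to 0.35. Suprabasal values rest on 24 and 28 cells in the placode-enriched libraries, and a low level there and free RNA cannot be told apart.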
